A study of Bos taurus with 12 samples.

Results

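DYNLT3, DYNLT1, DYNLL1 and DYNLRB1 encode light chains of cytoplasmic dynein. They were followed in bovine embryos grown in vitro from oocytes of prepubertal heifers or of adult cows. All probe sets that the platform annotation gives to exactly 1 of these symbols were taken: 7 of the 24016 probe sets tested, for 4 of the 9155 genes named. DYNLT3 has 3 probe sets, DYNLL1 has 2, and DYNLT1 and DYNLRB1 have 1 each. DYNLT3 was chosen by its signal, because 1 of its probe sets differed by oocyte origin at the 8-16-cell stage, so its values there and in every comparison that uses those 8-16-cell arrays are given as a description, without a test.

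Cytoplasmic dynein is the motor that carries cargo toward the minus ends of microtubules and acts on the spindle and at kinetochores during division. Its light chains come as dimers of 3 families, Tctex, LC8 and roadblock, which sit on the intermediate chains. DYNLT1 and DYNLT3 are the Tctex-type members, and DYNLT3 is known from human cells to bind the spindle checkpoint protein BUB3. DYNLL1 is the LC8-type chain, a hub that also binds many proteins outside the motor, and DYNLRB1 is the roadblock-type chain.

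The embryos were of Japanese Black cattle. Oocytes came from heifers aged 9 to 12 months, whose ovaries were taken by spay device on farms, or from adult cows, whose ovaries came from an abattoir. Donor age and the way ovaries were obtained therefore cannot be told apart. Oocytes were matured in vitro and inseminated with thawed Japanese Black bull sperm, and the zygotes were grown first with albumin and then with serum. Each of the 4 groups had 3 arrays, every array from a separate pool (n = 3 throughout): prepubertal blastocysts, adult blastocysts, prepubertal 8-16-cell embryos and adult 8-16-cell embryos. Blastocysts were expanded but not hatched, on day 7, in pools of 10, and 8-16-cell embryos were collected in pools of 50 on day 3, when 70 to 72 h had passed since insemination. Stage thus also differs in pool size and in time in serum. The labels call the pools biological replicates without saying whether pools shared animals or a culture day, so p-values speak of pools, not of animals. The spread behind limma p-values was mostly borrowed from other probe sets, as described under processing. In whole embryos, fewer cells of a type and less RNA per cell cannot be told apart.

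Values are signal intensities of probe sets, made by the authors with MAS5, and the differences below are on the scale log2(signal + 16). Each array's background was the brightest of 27 probe sets for genes of Bacillus subtilis, and it lay between 122 and 424 on 11 of the 12 arrays. Replicate 3 of the prepubertal 8-16-cell group stood apart, with a background of 1664 and 1255 probe sets above background, where the other arrays had 4297 to 8500. Values without that array stand beside many of the results that use it. The spiked hybridization controls were 3.03-fold brighter on the prepubertal 8-16-cell arrays than on the adult ones (two-sided exact permutation test, p = 0.1, the smallest possible). On blastocyst arrays the ratio was 1.06 (exact permutation p = 0.9). Over all probe sets the median difference was 0.59 for prepubertal minus adult 8-16-cell embryos, 0.16 for the same contrast in blastocysts, 0.08 for blastocyst minus 8-16-cell in the adult group and -0.37 in the prepubertal group. The trophectoderm markers as a sum separated the stages as labelled: the summed signal of 5 measured genes was 117233 to 158082 in prepubertal and 83582 to 144289 in adult blastocysts, against 310 to 1109 in prepubertal and 177 to 711 in adult 8-16-cell embryos. LGALS3 alone read 47394 to 106546 in prepubertal and 45785 to 119277 in adult blastocysts. IFNT2 overlapped between stages, at 17.0 to 3292 in prepubertal blastocysts and 9.79 to 255 in adult 8-16-cell embryos, where 1 array was above background. KRT18 was above background on 1 prepubertal 8-16-cell array. SOX2 of the inner cell mass was at background in all groups, while POU5F1 was above background on all 6 blastocyst arrays. POU5F1 was also above background on 2 prepubertal and 1 adult 8-16-cell arrays. Of 6 oocyte genes measured, BMP15, KPNA7 and ZP2 were above background on all 6 arrays of 8-16-cell embryos and GDF9 on 5 of them, while NLRP5 and ZP3 were at background. The summed signal of the 6 genes was 227 to 1703 in prepubertal and 602 to 722 in adult blastocysts, against 50794 to 264810 in prepubertal and 31031 to 55603 in adult 8-16-cell embryos.

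At the 8-16-cell stage, DYNLT3 probe set Bt.20800.1.S1_at read 9600, 5551 and 93738 in the 3 prepubertal pools, against 163.5, 107 and 9.14 in the 3 adult pools. The groups did not overlap, every prepubertal array was above its background, and 1 of the 3 adult arrays was. On the log2 scale the probe set averaged 14.06 ± 2.16 in prepubertal and 6.36 ± 1.50 in adult 8-16-cell embryos (SD, n = 3 each), a difference of 7.70 (SE 1.48) that was the second in size among all 24016 probe sets. The brightest value, 93738, came from the array that stands apart, and without that array the difference was 6.48. Leaving out any 1 array gave 6.48 to 8.51, quantile normalization gave 6.81, and raising every signal to the highest background of the 12 arrays gave 3.35. These are values of the contrast that chose the gene. As background, limma called 0.0208% of all probe sets in that contrast, 0.0125% as higher and 0.00833% as lower, and the donor groups were separate, with prepubertal higher, for 10%. Nothing is read from these shares for DYNLT3.

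The other probe sets of DYNLT3 did not show this pattern. Bt.13768.1.S1_at read 1857, 2132 and 43.7 in prepubertal 8-16-cell embryos, against 81.1, 1555 and 3216 in adult ones. The donor groups overlapped, and the low prepubertal value lay on the array that stands apart. Its log2 difference was -0.35 (SE 1.50) with that array and 1.34 without it. Bt.13768.2.S1_at read 1932, 563 and 35.6 in prepubertal 8-16-cell embryos, against 118, 916 and 112 in adult ones. These groups also overlapped, the difference was 0.62 (SE 1.49), and it was 2.07 without the array that stands apart. By size of the difference, Bt.13768.1.S1_at ranked 19768 and Bt.13768.2.S1_at ranked 16453 among the 24016 probe sets.

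Across the 12 arrays, the paired probe sets Bt.13768.1.S1_at and Bt.13768.2.S1_at followed each other (Pearson r = 0.64 of log2 signals). Bt.20800.1.S1_at followed neither, with r = -0.08 to Bt.13768.1.S1_at and r = -0.01 to Bt.13768.2.S1_at. These correlations are descriptions over arrays of 4 groups that share a stage or donor class. The identifiers carry different cluster numbers, and which stretch of the DYNLT3 transcript each probe set reads is not annotated in the sources used here. Whether all of them read DYNLT3 was not tested.

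**Figure D1:**
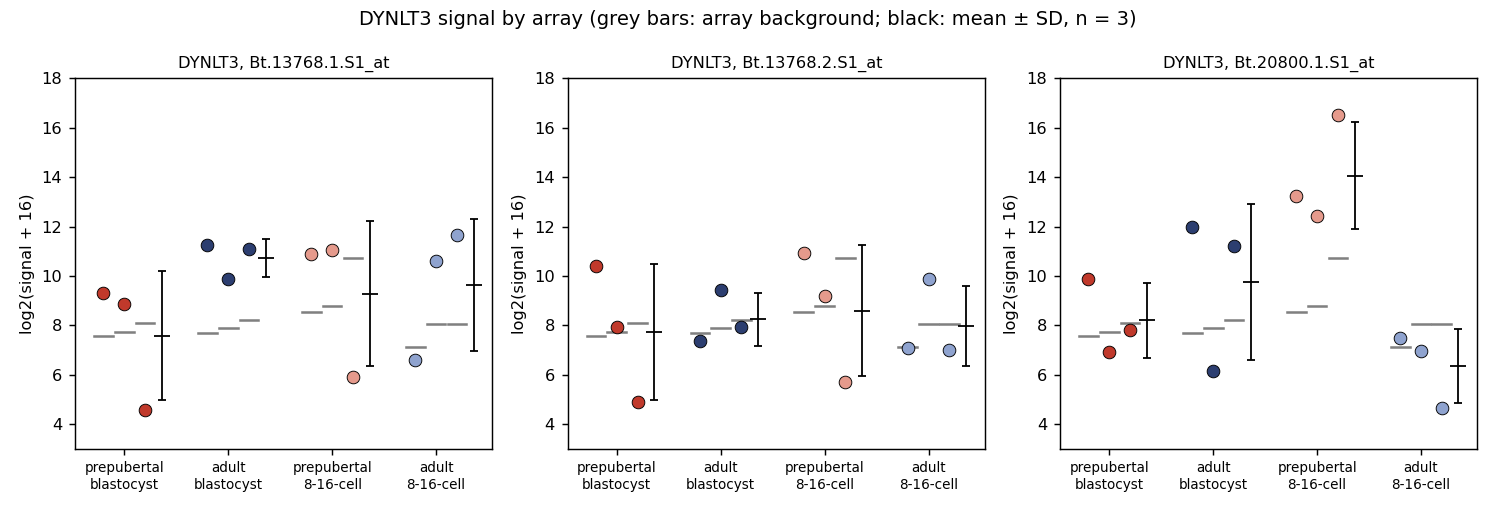
Signals of the 3 DYNLT3 probe sets on every array, as log2(signal + 16), by group. Coloured points are arrays, grey bars each array's background, and black marks the mean ± SD of 3 arrays. In the panel for Bt.20800.1.S1_at the prepubertal 8-16-cell arrays (5551 to 93738) lie above the adult 8-16-cell arrays (9.14 to 163.5), while the panels of the other probe sets show overlapping groups at that stage.

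In blastocysts, whose arrays played no part in choosing the gene, none of the 3 DYNLT3 probe sets passed the test for prepubertal against adult origin. Bt.20800.1.S1_at read 918, 105 and 210 in prepubertal blastocysts, against 3974, 55.0 and 2346 in adult blastocysts. Both groups held bright and dim pools, with 1 of 3 prepubertal and 2 of 3 adult arrays above background. The difference was -1.57 (SE 1.48, 95% interval -4.48 to 1.34, limma adjusted p = 0.9996).

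Bt.13768.1.S1_at read 616, 449 and 7.96 in prepubertal blastocysts, against 2414, 916 and 2172 in adult blastocysts. All 3 prepubertal pools lay below all 3 adult pools, and 1 of the prepubertal pools was at background. The difference of -3.15 (SE 1.50, 95% interval -6.11 to -0.19) did not pass over all probe sets (limma adjusted p = 0.9996). Groups separated in that direction for 3.78% of all probe sets. Bt.13768.2.S1_at read 1328, 230 and 13.6 in prepubertal blastocysts and 147, 681 and 228 in adult blastocysts, with overlapping groups and a difference of -0.50 (SE 1.49, limma adjusted p = 0.9996). For prepubertal against adult blastocysts limma called 0% of the 24016 probe sets (884 had an unadjusted p under 0.05).

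Set between stages, Bt.20800.1.S1_at was lower in prepubertal blastocysts than in prepubertal 8-16-cell embryos in every pool, as were 9.24% of all probe sets. Its difference was -5.86 (SE 1.48), and -4.63 without the array that stands apart. In the adult group the stages overlapped and blastocyst minus 8-16-cell was 3.41 (SE 1.48). The adult blastocyst values of 3974 and 2346 lay above the adult 8-16-cell values, and the value of 55.0 lay among them. From high to low the group means of this probe set ran prepubertal 8-16-cell, adult blastocyst, prepubertal blastocyst and adult 8-16-cell, and only the first of these did not overlap its neighbour. Blastocyst minus 8-16-cell for Bt.13768.1.S1_at was -1.70 in the prepubertal and 1.11 in the adult group, and for Bt.13768.2.S1_at it was -0.86 and 0.26 in the same order. Without the array that stands apart the prepubertal differences were -3.39 for Bt.13768.1.S1_at and -2.31 for Bt.13768.2.S1_at. Over all arrays the stages overlapped in all 4, and in Bt.13768.1.S1_at the adult blastocyst pools were the least spread (SD 0.76).

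DYNLT1, the closest relative of DYNLT3 in the motor, was brightest in prepubertal blastocysts. Probe set Bt.2612.1.S1_at read 1106, 2919 and 228 in prepubertal blastocysts, against 19.8, 191 and 35.5 in adult blastocysts. All 3 adult pools were at background, 2 of the 3 prepubertal pools were above it, and the groups did not overlap. The means were 9.86 ± 1.81 in prepubertal and 6.18 ± 1.34 in adult blastocysts (log2 signal, SD). The difference did not pass over all probe sets (3.68, SE 1.45, limma adjusted p = 0.9996). Raising the adult signals to their own array's background left prepubertal blastocysts 3.81-fold higher. That fold is no firm minimum, because the prepubertal pool at 228 lay below its own background of 254. With every signal raised to the highest background the log2 difference was 0.27. For "at least" folds below, signals of the group wholly at background were raised to their own array's background, and the other group kept its signals. Groups separated in this direction for 6.04% of all probe sets.

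In 8-16-cell embryos DYNLT1 read 156, 1403 and 34.3 in prepubertal embryos, against 6.04, 102 and 255 in adult embryos. The groups overlapped, and 1 array of each was above background. The difference was 1.37 (SE 1.45, 95% interval -1.49 to 4.23, limma adjusted p = 0.801), and 2.47 without prepubertal replicate 3. Between stages it was 2.01 in the prepubertal group (SE 1.45, limma adjusted p = 0.584), or 0.91 without 8-16-cell replicate 3 (limma adjusted p = 0.879), and -0.30 in the adult group (limma adjusted p = 0.986), where 1 of 6 arrays was above background. DYNLT1 thus passed in none of the comparisons, and its order of group means was prepubertal blastocyst, prepubertal 8-16-cell, adult 8-16-cell and adult blastocyst, with neighbours overlapping throughout.

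DYNLL1 was bright in every group. Probe set Bt.2307.1.S1_s_at, whose suffix marks probes shared by more than 1 transcript, read 4681, 12013 and 6770 in prepubertal and 4641, 7421 and 6065 in adult blastocysts. It read 8969, 11711 and 17554 in prepubertal and 5733, 9683 and 10134 in adult 8-16-cell embryos. All 12 values were above background, and the groups overlapped in each of the 4 comparisons. Its differences were 0.29 for prepubertal minus adult blastocysts and 0.57 for the same contrast at the 8-16-cell stage (0.31 without the array that stands apart). Blastocyst minus 8-16-cell was -0.76 in the prepubertal (-0.50 without that array) and -0.48 in the adult group, and none of these passed (limma adjusted p at least 0.806). The 95% intervals of these differences lay between -2.73 and 2.55, and each held changes of either sign. With 3 arrays a group they leave such changes open and give no limit of detection.

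The second DYNLL1 probe set was dimmer in most blastocyst pools. Bt.28607.1.S1_at read 1374, 13296 and 111 in prepubertal blastocysts, against 20279, 33548 and 5455 in prepubertal 8-16-cell embryos. In the adult group it read 5.65, 1656 and 2808 in blastocysts, against 2018, 22108 and 12865 at the 8-16-cell stage. It was above background on all 6 arrays of 8-16-cell embryos, and in each blastocyst group 1 of the 3 pools was at background. Stages overlapped in both donor groups, through the bright prepubertal blastocyst pool and the dim adult 8-16-cell pool.

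Blastocyst minus 8-16-cell for Bt.28607.1.S1_at was -3.54 in the prepubertal group (SE 1.31, limma adjusted p = 0.143) and -4.16 in the adult group (SE 1.31, limma adjusted p = 0.0654), so it was not called in either. The adult pools had SDs of 3.86 in blastocysts and 1.81 at the 8-16-cell stage, while the SE of 1.31 is mostly borrowed from other probe sets. The adult value was near the threshold and passed in 7 of 22 alternative settings, with adjusted p between 0.0236 and 0.719. It was -1.94 without adult blastocyst replicate 1, and it passed without adult blastocyst replicate 2 or 3, adult 8-16-cell replicate 1, prepubertal blastocyst replicate 3 or prepubertal 8-16-cell replicate 3 (limma adjusted p = 0.0318 without the last). The prepubertal difference passed without prepubertal blastocyst replicate 2 (-5.21, limma adjusted p = 0.0462) and was -4.30 without 8-16-cell replicate 3 (limma adjusted p = 0.0693). Prepubertal minus adult was 1.51 in blastocysts (SE 1.31, limma adjusted p = 0.9996) and 0.89 at the 8-16-cell stage (SE 1.31, limma adjusted p = 0.862), or 1.65 without the array that stands apart. The DYNLL1 probe sets had r = 0.68 with each other over the 12 arrays.

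DYNLRB1 gave the 1 call among the light chains in a comparison that had not chosen its gene. Bt.7798.1.S1_at read 2790, 2546 and 3197 in prepubertal blastocysts, against 9.10, 12.4 and 28.6 in prepubertal 8-16-cell embryos. All blastocyst pools were above background and no 8-16-cell pool was. On the log2 scale it averaged 11.48 ± 0.16 in prepubertal blastocysts and 4.99 ± 0.44 in prepubertal 8-16-cell embryos, a difference of 6.49 (SE 1.46, limma adjusted p = 0.00218), or at least 4.38-fold higher. The bound rests on the high background of the array that stands apart: without it the rise was at least 7.04-fold and the difference 6.74 (limma adjusted p = 0.00411). Over all 22 alternative settings the adjusted p lay between 0.000865 and 0.0419. In this comparison 2.34% of all probe sets were called, 1.43% as higher and 0.912% as lower in blastocysts. The stages were separate, with blastocysts higher, for 7.35% of all probe sets.

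In the adult group DYNLRB1 read 462, 508 and 825 in blastocysts, against 64.8, 137 and 255 at the 8-16-cell stage. The stages did not overlap, as for 9.55% of all probe sets in that direction, and 1 of the 3 adult 8-16-cell arrays was above background, narrowly. The difference of 1.99 did not pass (SE 1.46, limma adjusted p = 0.723). In this comparison 2.13% of all probe sets were called, 1.26% as higher and 0.87% as lower in blastocysts.

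The donor groups of DYNLRB1 were separate at both stages, with opposite signs. All 6 blastocyst arrays were above background. Prepubertal minus adult there was 2.26 (SE 1.46, limma adjusted p = 0.9996), with every prepubertal pool above every adult pool, as for 6.04% of all probe sets. At the 8-16-cell stage it was -2.24 (SE 1.46, limma adjusted p = 0.646; -2.49 without the array that stands apart), with every prepubertal pool below every adult pool, as for 2.67% of all probe sets, but 5 of those 6 values lay at or below background, where their order carries no measured difference. Opposite separations of this kind held for 114 probe sets, 0.475% of all. The prepubertal blastocyst pools had the smallest spread of any group of any light chain probe set (SD 0.16), and the adult 8-16-cell pools the widest for DYNLRB1 (SD 0.87).

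**Figure D2:**
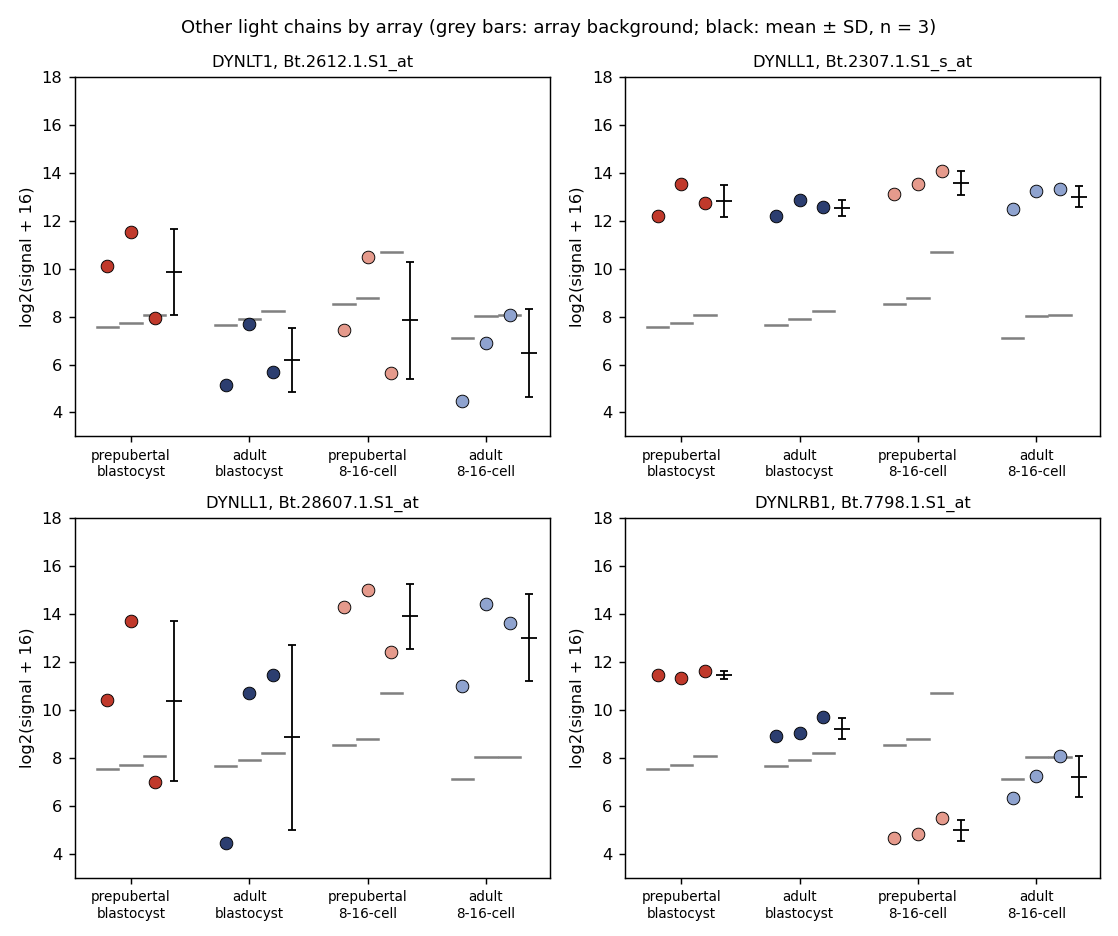
Signals of DYNLT1, DYNLL1 and DYNLRB1 probe sets on every array, as log2(signal + 16), by group. Coloured points are arrays, grey bars each array's background, and black marks the mean ± SD of 3 arrays. DYNLRB1 lies at 2546 to 3197 in prepubertal blastocysts and at 9.10 to 28.6, below background, in prepubertal 8-16-cell embryos, while DYNLL1 Bt.2307.1.S1_s_at is above background on all 12 arrays.

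The donor effects themselves were compared between stages by permuting donor labels within each stage, for the 4 probe sets of DYNLT1, DYNLL1 and DYNLRB1. For DYNLRB1 the donor difference in blastocysts exceeded that at the 8-16-cell stage by 4.50 (exact permutation test, two-sided, p = 0.005, the smallest of 400 arrangements, and 0.02 adjusted over the 4). This permutation assumes no donor difference at either stage, so it does not test whether the donor differences are equal. Donor groups separate in opposite directions always give its smallest p, and 0.475% of all probe sets had such groups. Without the array that stands apart the DYNLRB1 excess was 4.75 (exact permutation p = 0.005 of 200 arrangements). With every signal raised to the highest background it was 0.76 (exact permutation p = 0.1), since all 8-16-cell values then coincide. limma's test over all probe sets did not call it (adjusted p = 0.907). limma called 0 probe sets for this difference (1307 had an unadjusted p under 0.05). DYNLT1 gave 2.31 (exact permutation p = 0.41), DYNLL1 Bt.2307.1.S1_s_at gave -0.28 (exact permutation p = 0.66) and DYNLL1 Bt.28607.1.S1_at gave 0.61 (exact permutation p = 0.83). Without the array that stands apart these were 1.21 for DYNLT1, -0.023 for Bt.2307.1.S1_s_at and -0.14 for Bt.28607.1.S1_at (exact permutation p at least 0.68).

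**Figure D3:**
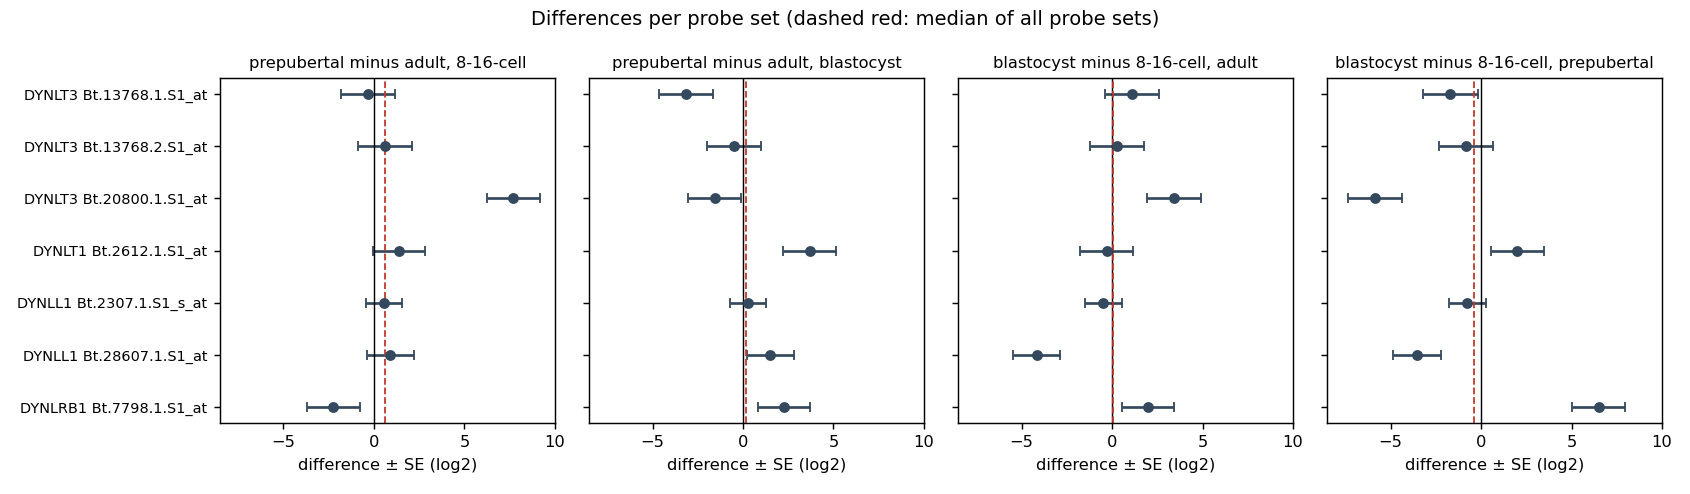
Differences of the 7 light chain probe sets in 4 comparisons, on the log2 scale, with bars of 1 SE. The dashed red line is the median of all probe sets in that comparison. DYNLT3 Bt.20800.1.S1_at lies at 7.70 for prepubertal minus adult 8-16-cell embryos, where the other DYNLT3 probe sets lie at -0.35 and 0.62, and DYNLRB1 lies at 6.49 for blastocyst minus 8-16-cell in the prepubertal group.

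Genes whose signal most resembled that of DYNLT3 Bt.20800.1.S1_at over the 12 arrays were sought among 7571 probe sets that name 1 gene and reach the median level. The 5 with the highest Pearson r were MAPKAPK5 (0.93), VCL (0.89), ABO (0.87), GLB1 (0.87) and RILPL1 (0.87). All were dim: their medians in prepubertal 8-16-cell embryos lay between 218 and 284, and they were above background on 1 to 4 of the 12 arrays. MAPKAPK5, a protein kinase gene, ran from 242 to 970 in prepubertal 8-16-cell embryos, none above background, against 4.15 to 5.37 in adult ones. The 12 arrays include the 8-16-cell groups whose difference chose DYNLT3, and the likeness is a description of these arrays.

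The genes around the light chains were taken as lists, each gene by its probe set of highest mean. No listed gene outside the 4 light chains was called for donor origin at either stage, where 0.0218% of all 9155 genes were called at the 8-16-cell stage and 0% in blastocysts. Between stages, 3.95% of all genes were called in the prepubertal group (2.57% higher and 1.39% lower in blastocysts) and 3.17% in the adult group, of which 1.33% of all genes as lower.

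The chains that the light chains are built into did not pass. Of 11 listed dynein motor chains 8 were measured and 0 were called in any comparison, with a median blastocyst minus 8-16-cell difference of 0.32 in the prepubertal group (all genes -0.16) and 0.29 in the adult group (all genes 0.13). DYNC1I2, an intermediate chain that holds the light chains, was above background on all 12 arrays and averaged 12.31 ± 0.46 in prepubertal and 11.78 ± 0.79 in adult blastocysts. In 8-16-cell embryos it averaged 14.14 ± 0.59 in prepubertal and 13.50 ± 0.83 in adult embryos. Stages did not overlap in either donor group, as for 8.91% of all genes in that direction in the prepubertal and 8.92% in the adult group, and the differences of -1.83 and -1.72 did not pass (limma adjusted p = 0.426 in the prepubertal and 0.573 in the adult group). The heavy chain DYNC1H1 lay near background on its brightest probe set, at 7.93 ± 1.04 in prepubertal and 6.74 ± 1.62 in adult blastocysts. In 8-16-cell embryos it averaged 8.23 ± 1.26 in prepubertal and 6.30 ± 1.62 in adult embryos, and on no 8-16-cell array was it above background. The stages overlapped in both donor groups.

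Of 10 other dynein light chain symbols 2 were measured, DYNLT2B and DYNLRB2, and neither was called. DYNLT2B, a Tctex-type chain of ciliary dynein, was above background on all 6 blastocyst arrays and on 1 of 6 8-16-cell arrays, with blastocyst minus 8-16-cell of 4.29 in the prepubertal group (SE 1.42, limma adjusted p = 0.0856) and 1.94 in the adult group (limma adjusted p = 0.724). DYNLRB2, the second roadblock gene, was at background on every array. The axonemal dynein list, of motors of cilia and sperm tails, had 2 of 11 genes measured and 0 called.

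Dynactin, the complex that links dynein to cargo, had 9 of 12 genes measured and 0 called, with stage medians of 0.09 in the prepubertal (0.69 without the array that stands apart) and 0.47 in the adult group. CAPZA1, a capping subunit of its filament, was above background on all 12 arrays and differed between stages by 0.96 in the prepubertal and 0.15 in the adult group. Dynein regulators and adaptors had 12 of 20 genes measured and 0 called. Their median was -0.79 in the prepubertal (-0.42 without that array, where all genes had 0.07) and -0.31 in the adult group. Without the array that stands apart, CLIP1, which tracks microtubule plus ends, passed as higher in blastocysts in the prepubertal group (5.99, limma adjusted p = 0.0106, against 0.0914 with all arrays) and in the adult group (4.51, limma adjusted p = 0.0378, against 0.0784).

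Spindle and kinetochore partners had 12 of 13 genes measured, and 3 were lower in blastocysts in 1 donor group each. ZWINT, which helps to hold the dynein recruiter ZW10 at kinetochores, fell in the prepubertal group, with 9.54 ± 1.52 in blastocysts and 13.85 ± 1.03 at the 8-16-cell stage (log2 signal, SD). Its difference was -4.31 (SE 1.21, limma adjusted p = 0.0275), and -3.77 without the array that stands apart, which ended the call (limma adjusted p = 0.0866). In the adult group BUB3, the checkpoint partner of DYNLT3, averaged 12.63 ± 0.61 in blastocysts and 15.50 ± 0.27 at the 8-16-cell stage. Its difference was -2.87 (SE 0.80, limma adjusted p = 0.0285), and its second probe set gave -1.92 and did not pass (limma adjusted p = 0.652). GPSM2, which anchors dynein at the cell cortex to orient the spindle, was at least 7.19-fold lower in adult blastocysts than in adult 8-16-cell embryos (limma adjusted p = 0.0178), on 1 of its probe sets, and the other gave -1.28 and did not pass (limma adjusted p = 0.856). The remaining 9 measured genes of this list passed in no comparison. The calls of ZWINT, BUB3 and GPSM2 were each lost in 5 to 7 of 22 alternative settings. BUB3 lost it without any 1 of the 6 adult arrays (limma adjusted p 0.0545 to 0.163), and GPSM2 without adult 8-16-cell replicate 3 or adult blastocyst replicate 1 or 2 (0.0511 to 0.273). ZWINT also lost it without prepubertal 8-16-cell replicate 1 or prepubertal blastocyst replicate 2 or 3 (0.0577 to 0.169).

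Kinesins, most of which run the other way along microtubules, had 17 of 25 genes measured and 1 called. KIF5B, the heavy chain of conventional kinesin, averaged 13.62 ± 0.57 in prepubertal blastocysts and 8.47 ± 1.62 in prepubertal 8-16-cell embryos, a rise of 5.15 (SE 1.15, limma adjusted p = 0.00204), and 4.45 without the array that stands apart. The call held in all 22 alternative settings. In the adult group KIF5B averaged 14.22 ± 0.10 in blastocysts and 12.10 ± 0.71 at the 8-16-cell stage, which did not pass (limma adjusted p = 0.508).

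Tubulins had 8 of 18 genes measured and 1 called, TUBA1A, with 14.21 ± 0.19 in prepubertal blastocysts and 10.27 ± 4.05 in prepubertal 8-16-cell embryos. That difference, 3.94 (SE 1.07, limma adjusted p = 0.0204), was 1.66 without prepubertal 8-16-cell replicate 3 and did not pass (limma adjusted p = 0.379). The call was also lost without any 1 of the prepubertal blastocyst arrays (limma adjusted p 0.0828 to 0.108). TUBE1, named after its values were seen, passed as lower in adult blastocysts without that array (limma adjusted p = 0.0396, against 0.0645 with all arrays). Of 10 listed proteins known to bind DYNLL1 or DYNLT1, 5 were measured and 1 was called. NRF1, a transcription factor of genes for mitochondrial proteins, was at least 7.69-fold lower in adult blastocysts than in adult 8-16-cell embryos (-6.13, SE 1.43, limma adjusted p = 0.00477). The call was lost without adult 8-16-cell replicate 1 (-5.22, limma adjusted p = 0.0519) and with every signal raised to the highest background (-0.70, limma adjusted p = 0.399).

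**Figure D4:**
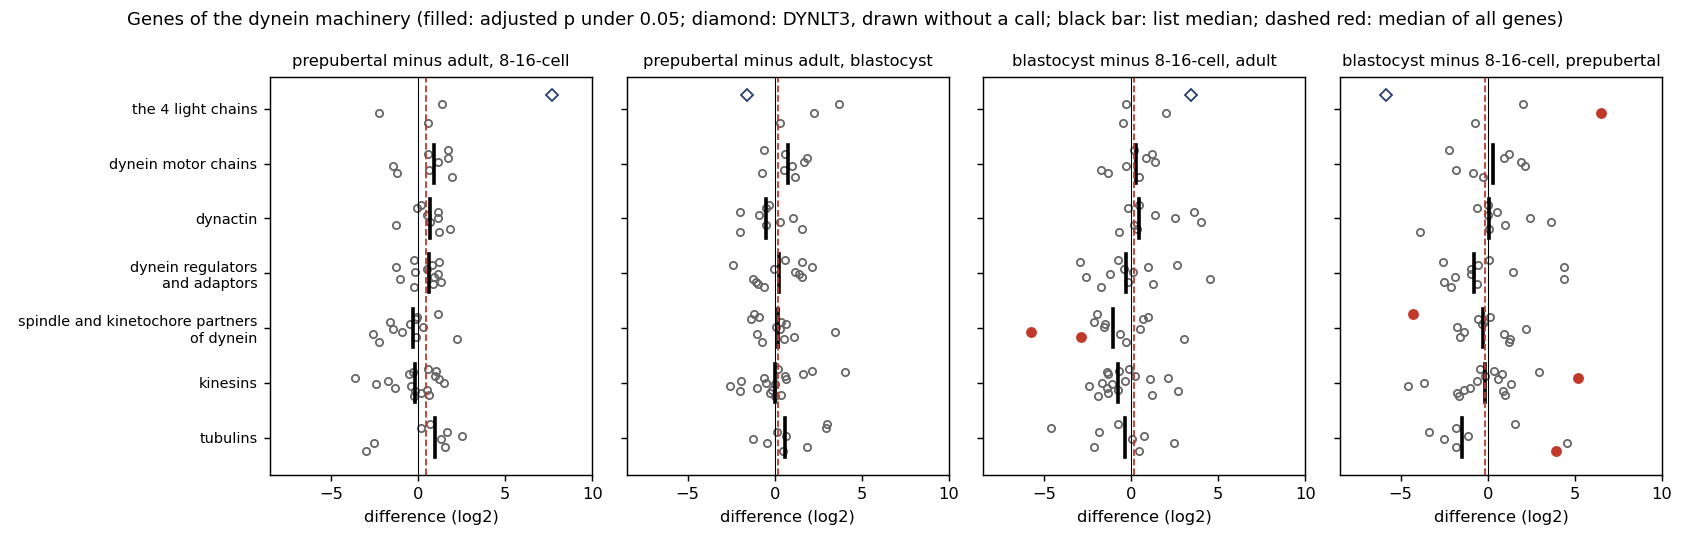
Differences on the log2 scale of the 4 light chain genes and of the listed genes of the dynein machinery, 1 point per gene, in 4 comparisons. Filled red points have an adjusted p under 0.05, the diamond is DYNLT3 drawn without a call, black bars are list medians and the dashed red line is the median of all genes. The lists of other light chains, axonemal dyneins and proteins that bind DYNLL1 or DYNLT1, NRF1 among them, are not drawn. No filled point stands in the donor comparisons, and those between stages are DYNLRB1, ZWINT, KIF5B and TUBA1A in the prepubertal group and BUB3 and GPSM2 in the adult group.

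Markers of other cell types were read on the same arrays as the DYNLT3 difference. The summed signal of 9 cumulus and granulosa genes was 1374 to 13849 in prepubertal and 1208 to 4283 in adult 8-16-cell embryos. STAR, a steroid synthesis gene among them, read 910 to 11344 in prepubertal and 411 to 3821 in adult embryos. Of the other 8 genes, FSHR, PTX3 and AMH were at background on all arrays of both groups. HAS2 was above background on 2 adult arrays, TNFAIP6, CYP19A1 and FOXL2 on 1 adult array each and INHBA on 1 prepubertal array. Of 6 sperm genes, all 6 were at background in prepubertal and 4 in adult 8-16-cell embryos, with sums of 450 to 1610 in prepubertal and 212 to 5527 in adult embryos. In the adult embryos ODF2 read 12.3 to 4968, above background on 2 arrays, and PRM2 was above background on 1. ODF2 was also above background on all blastocyst arrays, at 959 to 4833 in prepubertal and 1362 to 7140 in adult blastocysts. The 4 blood genes measured summed to 595 to 1463 in prepubertal and 390 to 1092 in adult embryos. The part of these cells in the DYNLT3 difference was not tested, nor was that of the hybridization control signal, 3.03-fold higher on the prepubertal arrays.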

How the data were processed

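Every array of an Affymetrix bovine design received biotin-labelled cDNA, amplified from the RNA of 1 pool, per the labels' protocols. The deposited signal intensities were made by the authors with MAS5, per the submitters' processing notes; the sources used here give no MAS5 version. The table holds 24128 probe sets, 112 of them controls. Of the 24016 tested, 13292 name 1 gene, 86 several and 10638 none in the platform annotation. The files name no genome build, so no coordinates are given, and sequences of the probe sets or genes were not used here.

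Group means of log2(signal + 16) were fitted with limma 3.58.1 in R 4.3.3 (lmFit, eBayes with trend), with 8 residual and 195.66 prior degrees of freedom. Each SE thus rests mostly on the spread of other probe sets of similar mean signal, and little on that of its own pools. For DYNLRB1 between stages in the prepubertal group the SDs were 0.16 and 0.44, and the SE was 1.46. Two-sided p-values had the Benjamini-Hochberg adjustment over all 24016 probe sets, and calls were made at 0.05. The median SE of a difference was 1.30, so 3 arrays a group limit the precision. The fit was tested on simulated data. That simulation used independent normal noise, without an array that stands apart or a background limit, so it does not cover those features. Single values had exact permutation tests, whose smallest p with 3 arrays in both groups is 0.1. The Bacillus controls were taken to have no target in embryos; had they been added to the samples, the background would be too high.

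The members and the gene lists were chosen with earlier results of these data known. Every member probe set is named; from each list, every called gene and up to 4 others, those of highest mean, may be named, and DYNLRB2, DYNLT2B and DYNC1H1 are among them. The 5 genes most like DYNLT3 were taken by Pearson r. Alternatives were another pseudocount (1 or 64), quantile or median normalization, a filter on dim probe sets, a raised background, array weights, no trend, a replicate block, only the groups compared, and each array left out.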

Additional observations from a re-analysis of the deposited data

Results flagged for a closer look

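DYNLRB1 Bt.7798.1.S1_at was flagged because its measured donor difference had opposite signs in blastocysts and at the 8-16-cell stage. Prepubertal minus adult was 2.26 in blastocysts and -2.24 at the 8-16-cell stage (log2), a difference between stages of 4.50 (exact permutation of donor labels within each stage, two-sided, p = 0.005, and 0.02 adjusted over the 4 probe sets tested). That permutation assumes no donor difference at either stage and does not test a change between stages. Its smallest p follows from groups separate in opposite directions, as for 0.475% of all probe sets. Neither donor difference passed (limma adjusted p = 0.9996 in blastocysts and 0.646 at the 8-16-cell stage). The blastocyst donor groups were separate, as for 6.04% of all probe sets in that direction, with 2546 to 3197 in prepubertal and 462 to 825 in adult pools. All 6 blastocyst values were above background. At the 8-16-cell stage the values were 9.10 to 28.6 in prepubertal and 64.8 to 255 in adult pools, and 1 of these 6 was above background. With every signal raised to the highest background the difference between stages was 0.76 (exact permutation p = 0.1), and limma over all probe sets gave an adjusted p of 0.907.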

How the results depend on the processing

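Alternatives were run for the counts of calls, the 7 light chain probe sets and the listed genes. For blastocyst minus 8-16-cell, 512 probe sets were called in the adult and 563 in the prepubertal group. With signals raised to the highest background the counts were 241 in the adult and 298 in the prepubertal group, and with array weights 889 in the adult group. Leaving out 1 array gave 253 to 794 in the adult group, 272 to 611 in the prepubertal group, 0 to 1 for the difference between the donor effects and 2 to 14 for prepubertal minus adult 8-16-cell embryos. That last count, 5, became 3 with a pseudocount of 1, of 64 or with array weights, 8 with quantile normalization, 17 with equal array medians (3 higher and 14 lower), 2 with only the groups compared, 1 with signals raised to background, and 0 with the dim filter or without a trend. For blastocysts, only the groups compared gave 2 calls.

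Raising signals to the highest background moved DYNLT3 Bt.20800.1.S1_at to 3.35 for prepubertal minus adult 8-16-cell embryos, -3.35 and 0.58 between stages in the prepubertal and adult groups, and -3.93 for the difference of donor effects. For Bt.13768.1.S1_at that last difference became -0.16. For these dim values the raised signals coincide by construction. DYNLL1 Bt.28607.1.S1_at in the adult group passed at -4.73 with a pseudocount of 1 (adjusted p = 0.038) and -4.02 with array weights (adjusted p = 0.0236).

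Signs turned for some differences that had not passed. DYNLL1 Bt.2307.1.S1_s_at gave -0.030 for prepubertal minus adult 8-16-cell embryos and 0.055 for the difference of donor effects with equal array medians, and DYNLL1 Bt.28607.1.S1_at gave -0.15 for that difference with signals raised to background. Leaving out 1 array gave -1.83 to 0.93 for DYNLT3 Bt.13768.2.S1_at, -0.076 to 0.60 for DYNLL1 Bt.2307.1.S1_s_at and -0.71 to 3.20 for DYNLL1 Bt.28607.1.S1_at, prepubertal minus adult blastocysts. At the 8-16-cell stage DYNLL1 Bt.28607.1.S1_at gave -0.12 to 1.65. Between stages, DYNLT1 gave -1.30 to 0.51 in the adult group. DYNLL1 Bt.28607.1.S1_at kept its negative sign between stages, with -5.45 to -1.94 in the adult and -5.21 to -1.85 in the prepubertal group. For the difference of donor effects the DYNLL1 probe sets gave -0.65 to 0.033 (Bt.2307.1.S1_s_at) and -1.60 to 2.31 (Bt.28607.1.S1_at). The cause of these moves was not tested.

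The call of DYNLRB1 held in all 22 alternatives, with differences of 0.76 to 7.48. Replicate numbers did not pair the arrays: deviations of same-numbered arrays correlated at -0.014 to 0.049. With the replicate number as a block, the counts were 540 in the adult and 608 in the prepubertal group between stages and 5 for donor origin at the 8-16-cell stage, the DYNLRB1 difference was 6.49 (adjusted p = 0.00209), and no call among the light chains changed.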
